A study of Homo sapiens with 12 samples.

Results

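The 10 genes described here encode the 4 stathmins (STMN1, STMN2, STMN3 and STMN4) and 6 other proteins of the neuronal cytoskeleton (DCX, GAP43, MAP2, MAPT, MAP1B and TUBB3). They were chosen by name and not by a cutoff on a measured value, but with earlier results of these data known. They are 10 of the 60660 genes listed in each deposited file, and all 10 were among the 16842 genes tested. RNA was sequenced from Kelly, an established human neuroblastoma line with MYCN amplification and adrenergic (neuron-like) character, in 3 derivatives that each carry a doxycycline-inducible short hairpin RNA (shRNA). The groups were induced and untreated shRCOR2 cells (shRNA against RCOR2), induced and untreated shRCOR1 cells (shRNA against RCOR1) and induced and untreated shCTRL cells (non-targeting shRNA), with 2 libraries in each of the 6 groups and 12 in all. RCOR1 and RCOR2 encode the related corepressor scaffolds RCoR1 and RCoR2, which hold KDM1A, a histone demethylase, together with histone deacetylases. Induced cells received 2 µg/mL doxycycline; the duration is 72 h by the time label and the design text but 24 or 48 h by the treatment protocol. The labels name 1 shRNA construct per derivative, so effects of the target and other effects of that shRNA cannot be told apart within a line. They do not say whether the libraries of a group came from separate cultures, and the p-values therefore measure only the spread between these libraries.

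Microtubules are polymers of alpha- and beta-tubulin that grow and shrink at their ends. Stathmins bind free tubulin dimers and favour disassembly, and phosphorylation switches this activity off. STMN1 is widely made, especially in dividing cells and in many tumours, while STMN2 (also called SCG10), STMN3 and STMN4 are largely neuronal and are held on Golgi and vesicle membranes. DCX (doublecortin) binds and stabilises microtubules in migrating young neurons, and MAP2, MAPT (tau) and MAP1B bind along microtubules of dendrites and axons. GAP43 is a membrane protein of growing axon tips, and TUBB3 is the beta-tubulin that marks neurons. STMN2 is a classical target of the repressor REST, which recruits CoREST complexes containing RCoR proteins to RE1 elements outside the nervous system.

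Promoter sequence is shown for a member that changed in the shRCOR2 line (STMN1), a member that changed in the shRCOR1 line (MAP2) and an abundant member that was called in no comparison (TUBB3). RefSeq windows of 250 bases before to 50 after an annotated start (GRCh38.p14) were matched for 7 of the 10 genes, in 15 windows; windows of STMN2, STMN4 and MAPT were not used here. For each gene the window with the longest stretch outside annotated exons is shown, from 250 bases before the start to the end of that stretch. STMN1 lies at chr1:25906467-25906669 on the minus strand, MAP2 at chr2:209579082-209579314 on the plus strand and TUBB3 at chr16:89923092-89923278 on the plus strand. Capitals mark the E-box CACGTG, which reads the same on both strands and is the core sequence bound by MYC family proteins.
STMN1: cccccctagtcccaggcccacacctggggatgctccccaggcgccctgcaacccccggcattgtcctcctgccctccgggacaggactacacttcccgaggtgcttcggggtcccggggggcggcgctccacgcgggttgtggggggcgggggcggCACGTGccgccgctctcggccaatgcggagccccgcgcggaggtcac
MAP2: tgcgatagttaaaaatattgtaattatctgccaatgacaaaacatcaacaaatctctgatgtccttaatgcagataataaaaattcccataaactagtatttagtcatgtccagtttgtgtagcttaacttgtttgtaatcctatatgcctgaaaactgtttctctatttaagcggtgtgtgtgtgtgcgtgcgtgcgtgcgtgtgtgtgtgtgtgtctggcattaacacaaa
TUBB3: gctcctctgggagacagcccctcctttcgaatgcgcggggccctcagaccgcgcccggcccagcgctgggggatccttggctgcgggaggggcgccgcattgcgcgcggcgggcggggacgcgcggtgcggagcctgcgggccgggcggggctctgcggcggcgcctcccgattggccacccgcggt
The E-box lies 94 to 89 bases before this STMN1 start, and 1 of the 15 windows of these genes held it, against 7.26% of all 35116 windows. E2F-type letters, searched on both strands, were also found in a window of STMN1 but outside the stretch shown: TTTGGCGC occurs in 0.652% of all windows and TTTCCCGC in 1.63%, while TTTCGCGC (0.515%) was in none of the 15. The left part of the RE1 element, TTCAGCACC (0.376% of all windows), was in none of the 15. These matches describe letters in a window and show no binding.

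The labels were checked against the targets and against cell type markers. RCOR2 stood at 17.7 and 20.5 TPM (a length-normalised share of the RNA, with the same total in every library) in induced shRCOR2 cells, against 55.4 and 49.9 TPM in untreated shRCOR2 cells. RCOR1 stood at 4.80 and 5.07 TPM in induced shRCOR1 cells, against 8.32 and 9.08 TPM in untreated shRCOR1 cells. RCOR2 was also lower there, at 26.0 and 26.3 TPM in induced cells against 51.4 and 50.5 TPM in untreated cells. In shCTRL cells RCOR1 stood at 8.83 and 9.15 TPM in induced libraries, against 10.7 and 8.99 TPM in untreated ones. RCOR2 had 49.7 and 42.7 TPM in induced shCTRL libraries, against 54.6 and 50.2 TPM in untreated ones. The RCOR1 change in shRCOR1 cells differed from that in shCTRL cells by −0.60 ± 0.17 (SE, log2), which was not called (limma adjusted p = 0.158). With the replicate number as a block this difference was called (limma adjusted p = 0.0452). All 8 adrenergic markers were expressed, with MYCN at 1042 to 3020 TPM. The Schwann cell markers SOX10 and S100B, the neuronal nuclear marker RBFOX3 and the leukocyte markers PTPRC and LYZ stayed below 0.5 TPM in every library, and CD3E was listed at 0 throughout. The files hold no read counts; by the ratio of coverage to FPKM (fragments per length of gene and size of library) sequencing depth varied by a factor of up to 2.04. In bulk RNA, fewer cells that express a gene and less of its RNA per cell cannot be told apart.

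Mean levels of the members lay between the 49.9 and 98.9 percentiles of the genes tested, and they are ranked here in TPM. The order between genes depended on the deposited measure. In gene coverage (mean read depth, rescaled between libraries), untreated shCTRL cells had 2144 and 1571 for GAP43 and 1189 and 787 for STMN3. TUBB3 had 656 and 558 there, and STMN2 had 254 and 462. Over the 6 untreated libraries, STMN1 averaged 758 ± 132 TPM, TUBB3 627 ± 23.3 TPM and STMN2 613 ± 187 TPM (SD, n = 6). The ranges of these 3 overlapped, so their order is not resolved. GAP43 followed at 283 ± 48.5 TPM and STMN3 at 161 ± 23.7 TPM, with ranges that did not overlap each other or their neighbours. MAP2 (79.5 ± 4.88 TPM) and MAP1B (70.5 ± 10.8 TPM) overlapped, as did MAPT (24.5 ± 11.1 TPM), STMN4 (14.2 ± 1.82 TPM) and DCX (13.1 ± 4.20 TPM) in part. Before induction, limma called 0 of the 10 genes between untreated shRCOR2 or shRCOR1 cells and untreated shCTRL cells at an adjusted p below 0.05, none had an unadjusted p below 0.05, and of all genes tested 0% were called (123 and 114 genes at an unadjusted p below 0.05). The intervals of these differences were wide for the noisier genes; for STMN2 the 95% interval between untreated shRCOR2 and untreated shCTRL cells ran from −1.25 to 1.24 on the log2 scale.

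**Figure D1:**
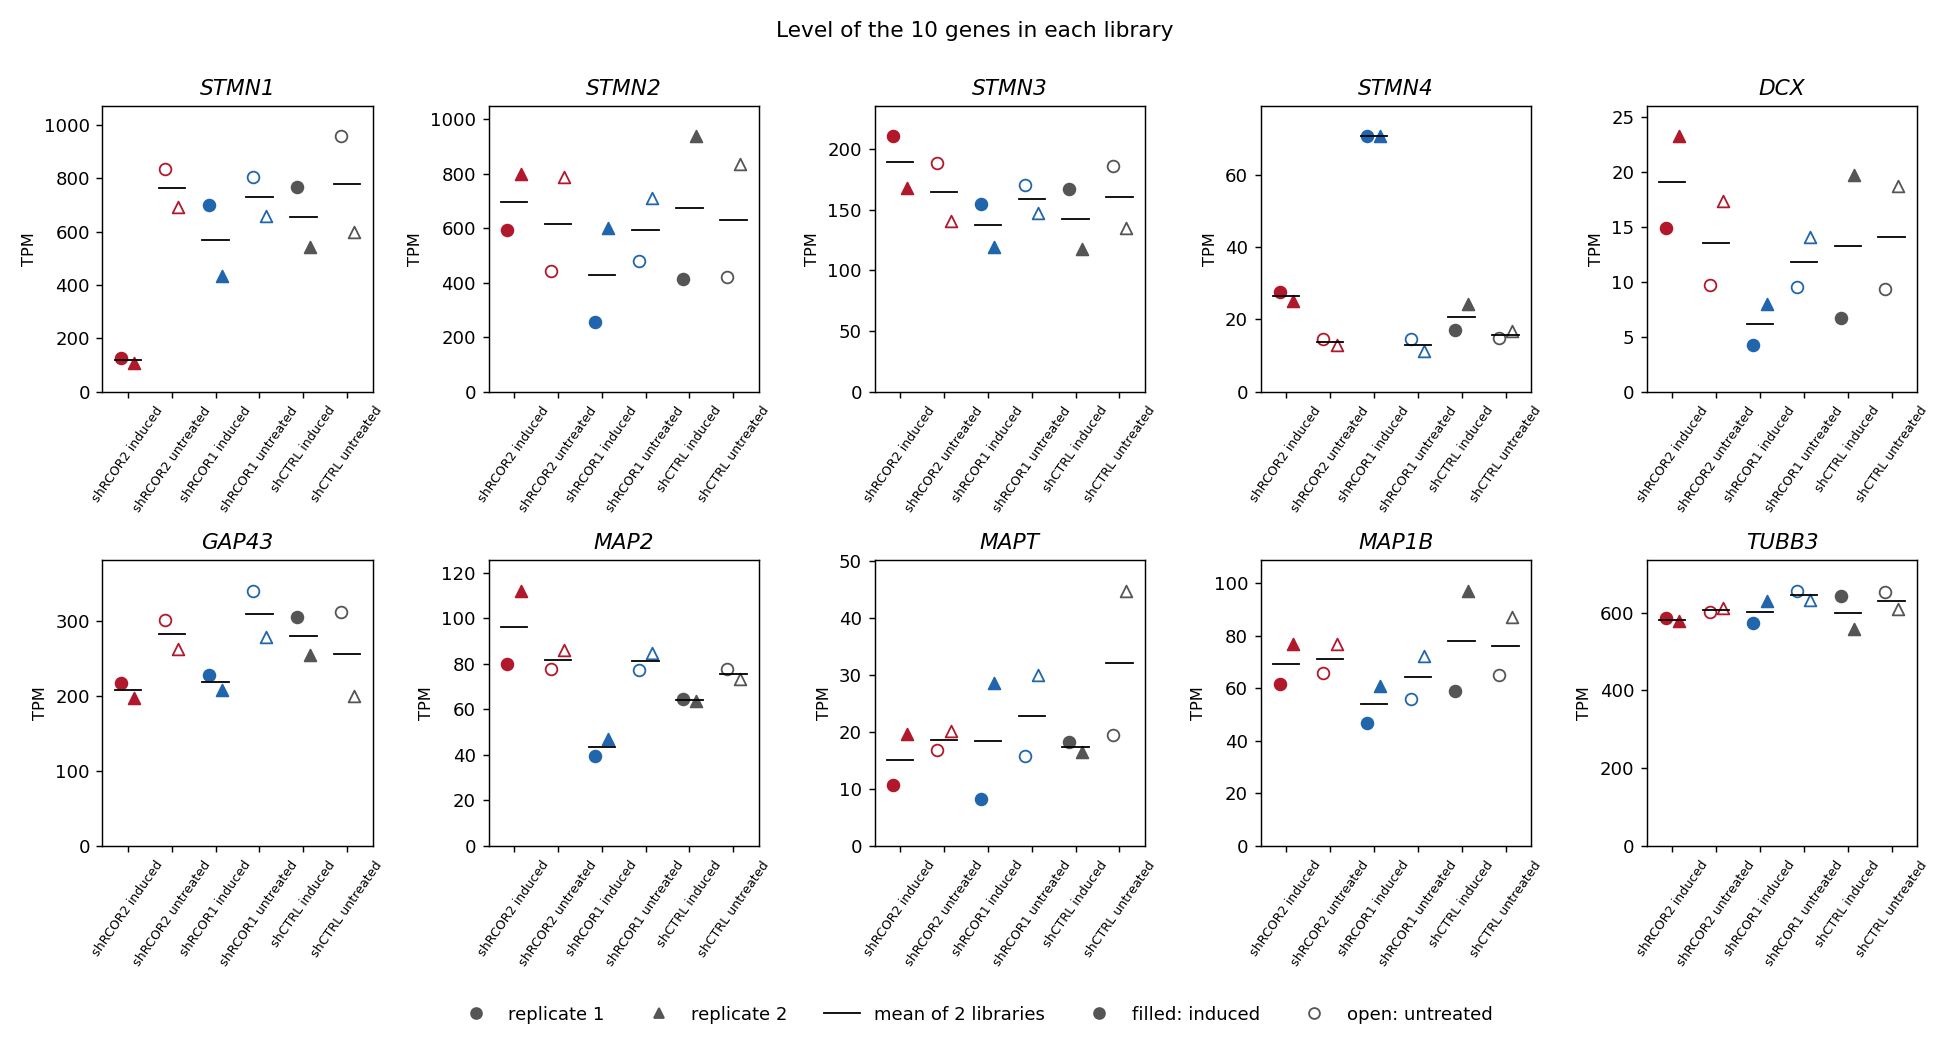
TPM of each of the 10 genes (y axis, linear from 0) in each library, by group (x axis); circles are replicate 1, triangles replicate 2, filled symbols induced cells, open symbols untreated cells and bars the mean of 2 libraries. STMN1 is low in both induced shRCOR2 libraries (127 and 108 TPM), STMN4 is high in both induced shRCOR1 libraries (70.8 TPM each) and MAP2 is low there (39.4 and 47.1 TPM).

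STMN1 (stathmin 1, chromosome 1, 25884181 to 25906991, GRCh38/hg38) was the member with the largest difference in shRCOR2 cells. It stood at 127 and 108 TPM in induced shRCOR2 cells, against 835 and 692 TPM in untreated shRCOR2 cells. Both induced libraries lay far below every other library of the series, the next lowest of which had 435 TPM. The log2 change was −2.69 ± 0.29 (SE; limma adjusted p = 0.0014; 95% interval −3.36 to −2.02), or 6.46-fold lower on the log2(TPM + 1) scale. In the shRCOR1 line STMN1 stood at 700 and 435 TPM in induced cells, against 804 and 659 TPM in untreated cells, groups that overlapped. That change was −0.40 ± 0.29 (limma adjusted p = 0.474; 0.0413 with the replicate number as a block). With the block, its difference from the shCTRL change was not called (−0.17 ± 0.17, limma adjusted p = 0.59). In the shCTRL line STMN1 stood at 767 and 544 TPM in induced cells, against 958 and 601 TPM in untreated cells, again with overlap. The change there was not called (−0.23 ± 0.29, limma adjusted p = 0.989). The change in shRCOR2 cells differed from that in shCTRL cells by −2.46 ± 0.41 (limma adjusted p = 0.028) and from that in shRCOR1 cells by −2.29 ± 0.41 (limma adjusted p = 0.0113). The call against shCTRL cells was lost when any of the 4 shRCOR2 libraries, either untreated shRCOR1 library, replicate 2 of untreated shCTRL or replicate 1 of induced shCTRL was left out, with adjusted p of 0.053 to 0.126 and differences of −2.59 to −2.12; with the replicate block the adjusted p was 0.000321.

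Markers of dividing cells moved in the same line. Of 7 such markers (MKI67, TOP2A, CCNB1, CDK1, BIRC5, PCNA and MCM2), 4 fell and 0 rose in the shRCOR2 line, where 6.47% of all genes fell (limma; 6 fell with the block, which called 36.2% of all genes in either direction). None was called in the shRCOR1 line (4 fell with the block) or in the shCTRL line (0 with the block). Their summed level was 746 to 924 TPM in induced shRCOR2 cells and 1328 to 1707 TPM in untreated shRCOR2 cells. It was 761 to 1298 TPM in induced shRCOR1 cells against 1361 to 1553 TPM in untreated ones, and 747 to 1392 TPM in induced shCTRL cells against 1171 to 1651 TPM in untreated ones. None of the 7 was called for the shRCOR2 minus shCTRL change (2.09% of all genes) or the shRCOR2 minus shRCOR1 change (11.2%). With the block, 2 were lower for each difference (14.7% and 30.4% of all genes called in either direction). The part of these markers in the STMN1 difference was not tested.

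STMN4 (chromosome 8, 27235323 to 27258420), a brain-enriched stathmin, was the member with the largest rise, in the shRCOR1 line. It stood at 70.8 and 70.8 TPM in induced shRCOR1 cells, against 14.5 and 11.3 TPM in untreated shRCOR1 cells. Both induced libraries lay above all other libraries, which reached 27.7 TPM at most. The log2 change was 2.38 ± 0.18 (limma adjusted p = 0.000348; 95% interval 1.98 to 2.78), or 5.21-fold higher on the log2(TPM + 1) scale. In the shRCOR2 line STMN4 stood at 27.7 and 25.2 TPM in induced cells, against 14.6 and 13.0 TPM in untreated cells, with no overlap. It rose there by 0.89 ± 0.18 (limma adjusted p = 0.014, and 0.00468 with the replicate block). In fits without the block this call needed all 4 shRCOR2 libraries, with changes of 0.82 to 0.97 without any 1 of them. In the shCTRL line the induced libraries also lay above the untreated ones, at 17.0 and 24.3 TPM in induced cells against 14.9 and 16.7 TPM in untreated cells, but the change was not called (0.35 ± 0.18, limma adjusted p = 0.926). Relative to shCTRL cells, the change in shRCOR1 cells was larger by 2.03 ± 0.25 (limma adjusted p = 0.0123), a call lost without replicate 2 of untreated shRCOR1, of induced shRCOR1 or of untreated shCTRL (adjusted p of 0.0559 to 0.0648). That in shRCOR2 cells was larger by 0.54 ± 0.25 and was not called (limma adjusted p = 0.313; 95% interval −0.03 to 1.11). The shRCOR2 change was smaller than the shRCOR1 change, by −1.49 ± 0.25 (limma adjusted p = 0.00887).

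STMN2 and STMN3, the other neuronal stathmins, were called in no line by limma without the block. STMN2 (chromosome 8, 79611117 to 79666158) stood at 593 and 798 TPM in induced shRCOR2 cells, against 443 and 789 TPM in untreated shRCOR2 cells. It stood at 256 and 599 TPM in induced shRCOR1 cells, against 479 and 712 TPM in untreated shRCOR1 cells, and at 415 and 938 TPM in induced shCTRL cells, against 422 and 836 TPM in untreated shCTRL cells. The groups overlapped in every line, and replicate 2 was the higher library in all 6 groups. The changes were 0.22 ± 0.55, −0.57 ± 0.55 and 0.07 ± 0.55 in the shRCOR2, shRCOR1 and shCTRL lines (limma adjusted p = 0.839, 0.602 and 1), and the shRCOR1 change was called with the replicate block (adjusted p = 0.0447). With the block, the difference of this STMN2 change from the shCTRL change was not called (−0.64 ± 0.25, limma adjusted p = 0.148). STMN3 (chromosome 20, 63639705 to 63657682) ran from 118 to 211 TPM over all 12 libraries. Its changes were 0.20 ± 0.24, −0.22 ± 0.24 and −0.17 ± 0.24 in the shRCOR2, shRCOR1 and shCTRL lines (limma adjusted p = 0.636, 0.662 and 0.989), with overlapping groups in all 3 lines. The shRCOR2 change lay above the shRCOR1 change by 0.79 ± 0.77 for STMN2 and 0.42 ± 0.35 for STMN3, differences that were called with the block only (limma adjusted p = 0.585 and 0.5; 0.0452 and 0.0209 with the block).

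The makeup of the stathmin pool, in TPM, differed between the induced lines. STMN1 supplied 13.2% and 9.83% of the summed TPM of the 4 stathmins in induced shRCOR2 cells, against 56.4% and 42.3% in untreated shRCOR2 cells. STMN2 supplied 61.9% and 72.6% in induced shRCOR2 cells, against 29.9% and 48.3% in untreated ones, although its own level did not pass the test. The summed level was 958 and 1099 TPM in induced shRCOR2 cells, against 1482 and 1635 TPM in untreated ones. In shRCOR1 cells the STMN4 share was 5.99% and 5.78% in induced libraries, against 0.986% and 0.738% in untreated ones, and the summed level was 1182 and 1224 TPM against 1468 and 1529 TPM. In shCTRL cells STMN1 supplied 56.1% and 33.5% in induced libraries, against 60.6% and 37.8% in untreated ones. These shares restate the levels above and were not tested. They hold for TPM only. In scaled gene coverage, STMN3 was the largest of the 4 in induced shRCOR2 cells (1231 and 949). STMN2 had 328 and 427 there, and STMN1 had 341 and 277, against 2266 and 1633 for STMN1 in untreated shRCOR2 cells.

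**Figure D2:**
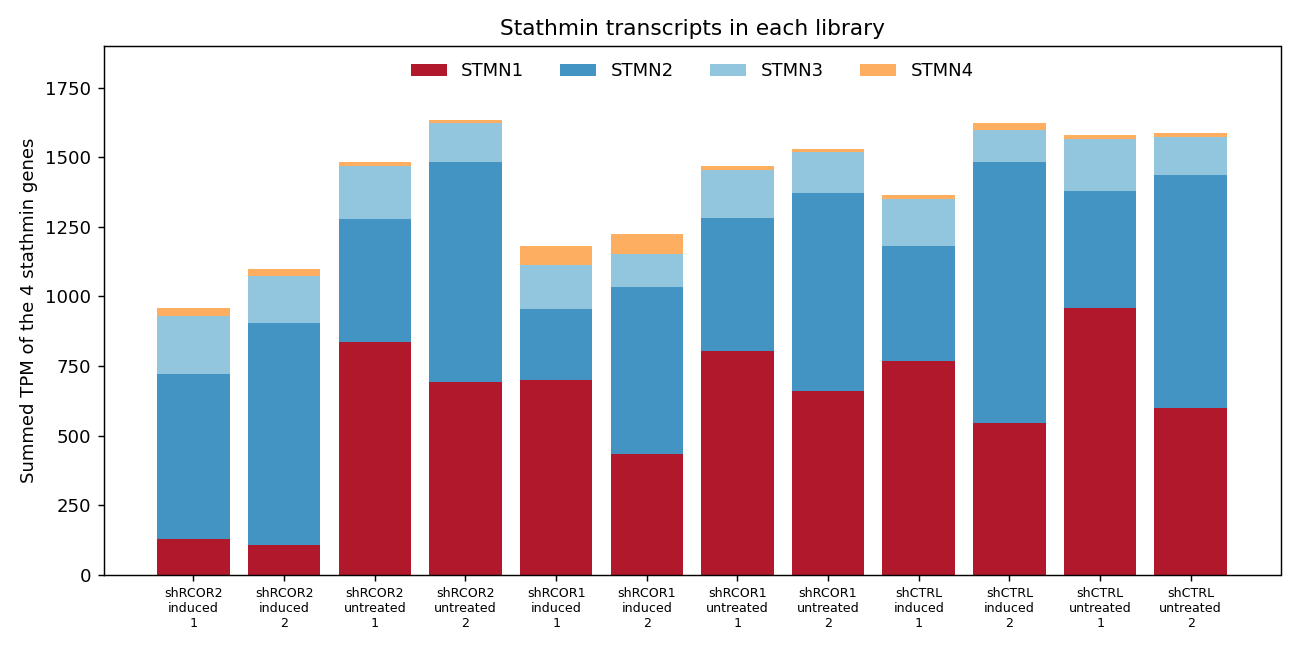
Summed TPM of STMN1, STMN2, STMN3 and STMN4 (y axis, stacked bars from 0) in each of the 12 libraries (x axis), with 1 colour per gene. The STMN1 portion is smallest in the induced shRCOR2 libraries (13.2% and 9.83% of the bar), and the STMN4 portion is largest in the induced shRCOR1 libraries (5.99% and 5.78%).

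MAP2 (chromosome 2, 209424058 to 209734118), a microtubule-associated protein of dendrites, fell in the shRCOR1 line. It stood at 39.4 and 47.1 TPM in induced shRCOR1 cells, against 77.4 and 84.7 TPM in untreated shRCOR1 cells, and these 2 libraries were the lowest of the series. The log2 change was −0.89 ± 0.16 (limma adjusted p = 0.0118), or 1.86-fold lower. In the shRCOR2 line MAP2 stood at 79.9 and 112 TPM in induced cells, against 77.6 and 86.1 TPM in untreated cells, with overlap (0.21 ± 0.16, limma adjusted p = 0.431). In the shCTRL line it stood at 64.4 and 63.8 TPM in induced cells, against 77.8 and 73.4 TPM in untreated cells; these groups did not overlap, but the change was not called (−0.23 ± 0.16, limma adjusted p = 0.958). The shRCOR2 change lay above the shRCOR1 change by 1.10 ± 0.22 (limma adjusted p = 0.0172). The shRCOR1 change differed from the shCTRL change by −0.66 ± 0.22, which was called with the block only (limma adjusted p = 0.218; 0.047 with the block). The fall in shRCOR1 cells was not called without replicate 1 of induced or either replicate of untreated shRCOR1 (adjusted p of 0.0661 to 0.0902, changes of −0.96 to −0.77), and the difference from the shRCOR2 line was not called without any of these or either untreated shRCOR2 library (adjusted p of 0.0506 to 0.0677).

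DCX, MAPT and MAP1B, the other microtubule-binding proteins, were not called in any line without the block. DCX (chromosome X, 111293779 to 111412429) stood at 14.9 and 23.2 TPM in induced shRCOR2 cells against 9.71 and 17.3 TPM in untreated ones, and at 4.25 and 7.94 TPM in induced shRCOR1 cells against 9.54 and 14.0 TPM in untreated ones. In shCTRL cells it stood at 6.73 and 19.7 TPM in induced and 9.36 and 18.7 TPM in untreated libraries. The groups overlapped in the shRCOR2 and shCTRL lines and not in the shRCOR1 line, where the change was −0.88 ± 0.53 (limma adjusted p = 0.374; 0.0106 with the block). The shRCOR2 change lay 1.36 ± 0.75 above the shRCOR1 change, which was likewise called with the block only (limma adjusted p = 0.298; 0.00653 with the block). Between the shRCOR1 and shCTRL changes of DCX, the difference was not called with the block (−0.70 ± 0.27, limma adjusted p = 0.138). MAP1B (chromosome 5, 72107234 to 72209565) ran from 46.9 to 97.2 TPM over the 12 libraries, with overlapping groups in all 3 lines. Its changes were −0.05 ± 0.26, −0.25 ± 0.26 and 0.01 ± 0.26 in the shRCOR2, shRCOR1 and shCTRL lines; the first turned to 0.02 with FPKM and the third to −0.0049 without mitochondrial genes, and none was called.

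MAPT (chromosome 17, 45894551 to 46028334) was the member whose change with induction depended most on the deposited measure. In TPM it stood at 10.7 and 19.5 in induced shRCOR2 cells against 16.8 and 20.2 in untreated ones, at 8.22 and 28.5 in induced shRCOR1 cells against 15.8 and 29.9 in untreated ones, and at 18.3 and 16.4 in induced shCTRL cells against 19.5 and 44.7 in untreated ones. The shCTRL change was −0.74 ± 0.58 in TPM (limma adjusted p = 0.975). In the deposited coverage of the gene, rescaled between libraries by the median of ratios, induced shCTRL cells had 32.5 and 43.4 and untreated shCTRL cells 30.6 and 44.2, and the change was 0.03 ± 0.31 (limma adjusted p = 0.997). Coverage is the mean read depth over the bases of a gene. The source of its difference from TPM for MAPT was not tested. No MAPT change was called on either measure without the block. In coverage with the block, the shRCOR2 change of −0.33 was called (limma adjusted p = 0.0421).

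GAP43 (chromosome 3, 115623510 to 115721490), the growth cone protein, was lower in the induced libraries of both knockdown lines. It stood at 218 and 198 TPM in induced shRCOR2 cells, against 302 and 264 TPM in untreated shRCOR2 cells. It stood at 229 and 209 TPM in induced shRCOR1 cells, against 341 and 280 TPM in untreated shRCOR1 cells. Neither pair of groups overlapped, which held for 63.3% and 53.1% of all genes tested in the shRCOR2 and shRCOR1 lines. In shCTRL cells it stood at 306 and 255 TPM in induced and 313 and 201 TPM in untreated libraries, which overlapped. Without the block the changes of −0.44 ± 0.20 in the shRCOR2 line and −0.50 ± 0.20 in the shRCOR1 line were not called (limma adjusted p = 0.192 and 0.181). With the block both were called (adjusted p = 0.0166 and 0.013), as were their differences from the shCTRL change, −0.59 ± 0.16 and −0.65 ± 0.16 (adjusted p = 0.0409 and 0.038). Both of these differences use the same shCTRL libraries.

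TUBB3 (chromosome 16, 89921392 to 89938761), the neuronal beta-tubulin, varied least of the 10, from 557 to 656 TPM over all libraries. It stood at 586 and 577 TPM in induced shRCOR2 cells, against 600.3 and 611 TPM in untreated shRCOR2 cells. It stood at 573 and 629 TPM in induced shRCOR1 cells, against 656 and 632 TPM in untreated shRCOR1 cells, and at 642 and 557 TPM in induced shCTRL cells, against 652 and 610 TPM in untreated ones. As for GAP43, induced libraries lay below untreated ones in the shRCOR2 and shRCOR1 lines, and the groups overlapped in the shCTRL line. The changes were −0.06 ± 0.10, −0.10 ± 0.10 and −0.08 ± 0.10 in the shRCOR2, shRCOR1 and shCTRL lines and were not called (limma adjusted p = 0.764, 0.624 and 0.989). The first turned to 0.0045 with FPKM. In TPM the 95% intervals ran from −0.29 to 0.18 in shRCOR2 cells and from −0.34 to 0.13 in shRCOR1 cells. They were wider in coverage, at −0.49 to 0.22 and −0.48 to 0.23 in the same order.

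Counted together, 2 of the 10 genes were called in the shRCOR2 line (STMN4 higher, STMN1 lower), where 14.3% of all genes tested were called (7.81% higher, 6.47% lower). In the shRCOR1 line 2 of 10 were called (STMN4 higher, MAP2 lower), against 8.62% of all genes (4.98% higher, 3.64% lower). In the shCTRL line limma called 0 of 10, with none at an unadjusted p below 0.05, and 0% of all genes, with 938 genes at an unadjusted p below 0.05. Between the lines, 1 of 10 was called for the shRCOR2 minus shCTRL change (2.09% of all genes), 1 of 10 for the shRCOR1 minus shCTRL change (1.28%) and 3 of 10 for the shRCOR2 minus shRCOR1 change (11.2%). With the replicate block the counts were 3 of 10 in the shRCOR2 line (36.2% of all genes), 6 of 10 in the shRCOR1 line (27.4%), 0 of 10 in the shCTRL line (0.0594%), and 2, 3 and 6 of 10 for the differences in the same order (14.7%, 10.2% and 30.4%). The median change of the 10 was 0.08 in the shRCOR2 line against 0.07 over all genes, −0.43 in the shRCOR1 line against 0.04, and −0.12 in the shCTRL line against −0.02. Groups did not overlap for 4, 5 and 3 of the 10 genes in the shRCOR2, shRCOR1 and shCTRL lines, where this held for 63.3%, 53.1% and 23.5% of all genes.

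**Figure D3:**
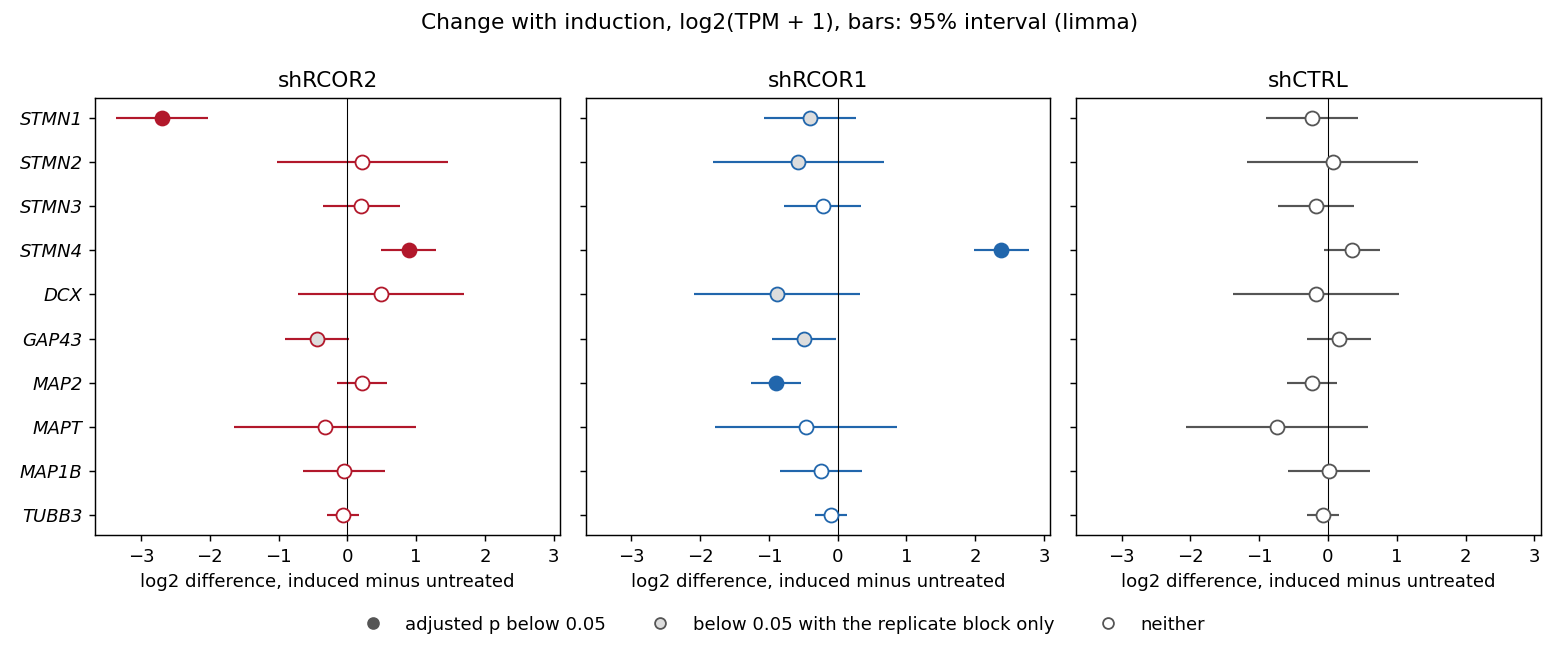
Log2 change of each of the 10 genes, induced minus untreated, on the log2(TPM + 1) scale (x axis), in the shRCOR2, shRCOR1 and shCTRL lines, with 95% intervals from limma. The STMN1 interval in shRCOR2 cells (−3.36 to −2.02) and the STMN4 interval in shRCOR1 cells (1.98 to 2.78) lie farthest from 0.

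The rest of the microtubule system was followed with lists of related genes. Over all genes tested, 7.81% rose and 6.47% fell in shRCOR2 cells, and 4.98% rose and 3.64% fell in shRCOR1 cells; with the block, 36.2% and 27.4% were called in either direction. Of 14 tubulins tested besides TUBB3, 0 rose and 3 fell in shRCOR2 cells (with the block, 1 and 8), and the median change was −0.43 against 0.07 over all genes. In the shRCOR1 line 3 rose and 1 fell (with the block, 6 and 3), and the median was 0.18 against 0.04 over all genes; other scalings gave 1 to 3 rises and 1 fall. TUBB2B, a beta-tubulin of developing neurons, moved in opposite directions. It stood at 186 and 154 TPM in induced shRCOR2 cells against 304 and 271 TPM in untreated ones (−0.76 ± 0.17, limma adjusted p = 0.0198). It stood at 532 and 430 TPM in induced shRCOR1 cells against 314 and 246 TPM in untreated ones (0.78 ± 0.17, limma adjusted p = 0.0245), and the difference between the lines was −1.54 ± 0.24 (limma adjusted p = 0.00647). TUBA1C, an alpha-tubulin, fell to 101 and 81.5 TPM in induced shRCOR2 cells, against 250 and 196 TPM in untreated ones (−1.28 ± 0.26, limma adjusted p = 0.0154), and TUBB6 fell by 0.77. In the shRCOR1 line the alpha-tubulin TUBA8 rose by 1.02 and the delta-tubulin TUBD1 fell by 0.72. Tubulin genes are close copies of each other, TUBB2A and TUBB2B above all, and the authors' counting could split reads between them, so these values are uncertain.

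Of 15 growth cone and neurite proteins, 0 rose and 3 fell in shRCOR1 cells (with the block, 2 and 4; other scalings gave 3 to 4 falls), and the median change was −0.05. MARCKSL1 and MARCKS, which bind membrane, actin and calmodulin, fell by 1.71 ± 0.23 and 1.16 ± 0.12 (limma adjusted p = 0.00376 and 0.00128). MARCKSL1 stood at 166 and 142 TPM in induced shRCOR1 cells, against 540 and 475 TPM in untreated ones. BASP1, a related protein of axon tips, fell by 0.51 ± 0.09 (limma adjusted p = 0.0116). In the shRCOR2 line 0 rose and 1 fell (with the block, 1 and 3; median change −0.07), the collapsin response protein DPYSL3 (−0.51 ± 0.09, limma adjusted p = 0.00725). Of 26 other microtubule-associated and end-binding proteins, the shRCOR2 line had 4 rises and 1 fall (with the block, 6 and 5; median change 0.01). The shRCOR1 line had 3 rises and 3 falls (with the block, 8 and 3; median change 0.13). Other scalings gave 2 to 4 rises and 0 to 2 falls in shRCOR2 cells and 2 to 4 rises and 1 to 3 falls in shRCOR1 cells. The plus-end protein MAPRE3 rose by 0.69 in the shRCOR2 line, beside MAP9 (0.50) and MAP6 (0.42), and in the shRCOR1 line MAP7 (1.28) and NAV2 (1.10) rose and MAP1A (−0.74) fell.

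Enzymes and motors that act on microtubules were read against the same shares of all genes. Of 10 severing and depolymerising proteins, limma called 0 in the shRCOR2 line, with 0 at an unadjusted p below 0.05 (2 fell with the block; median change −0.17). In the shRCOR1 line 1 fell (4 with the block; median change −0.46), SPAST (spastin, which severs microtubules), at 14.3 and 12.3 TPM in induced cells against 21.2 and 23.6 TPM in untreated cells (−0.71 ± 0.13, limma adjusted p = 0.0135). Of 21 tubulin folding and modifying enzymes, 2 rose in the shRCOR2 line, TBCC (0.71) and SVBP (0.45), with 5 rises under the block, 0 to 2 under other scalings and a median change of 0.12. In the shRCOR1 line 2 fell, TTLL5 (−0.53) and SVBP (−0.49), with 1 rise and 4 falls under the block, 1 to 3 falls under other scalings and a median change of −0.06. SVBP is the partner of the vasohibins that remove the last tyrosine of alpha-tubulin. Of 16 kinases and kinase activators that act on stathmins and microtubule-associated proteins, CDK5R2 rose (0.39) and CDK1 (−0.95) and CDK5R1 (−0.62) fell in shRCOR2 cells (4 rises and 2 falls with the block, 0 to 2 rises and 1 to 2 falls under other scalings; median change 0.11). CDK1 is among the kinases that phosphorylate stathmin 1. Of 14 motor subunits, 2 rose and 2 fell in shRCOR2 cells (2 and 3 with the block; median change −0.11). In shRCOR1 cells 2 rose (5 with the block, 1 under each other scaling; median change 0.25). The kinesin KIF1C rose in both (0.94 and 0.69). In the shCTRL line limma called none of the genes of these 7 lists.

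Replicate number was a second axis of variation in these genes. Replicate 2 was lower than replicate 1 in all 6 groups for STMN1, STMN3 and GAP43, and higher in all 6 groups for STMN2, DCX and MAP1B. This same-direction pattern held for 6 of the 10 members and for 43.7% of all genes tested. The median difference, replicate 2 minus replicate 1 on the log2(TPM + 1) scale, was 0.91 for STMN2, 0.77 for DCX and 0.37 for MAP1B, and −0.39 for STMN1, −0.40 for STMN3 and −0.23 for GAP43. Mitochondrial transcripts also took a larger share of TPM in replicate 2 of every group, within 13.3% to 21.4% over the series. For MAPT replicate 2 was higher in 5 of the 6 groups in TPM and in all 6 in coverage, by 0.29 to 0.63. The labels do not say what the replicate numbers stand for.

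**Figure D4:**
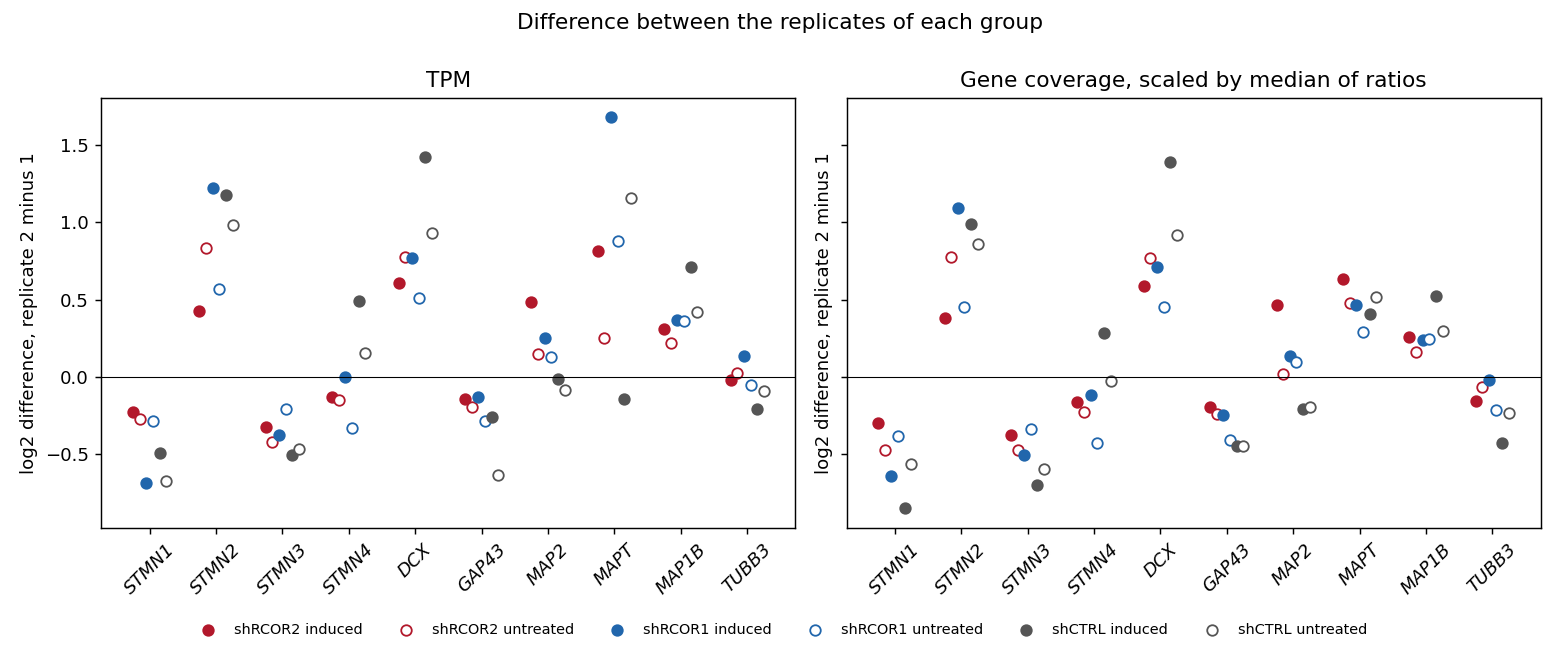
Log2 difference between replicate 2 and replicate 1 (y axis) of each of the 10 genes (x axis), with 1 point for each of the 6 groups, in TPM and in coverage. STMN2 and DCX lie above 0 in every group and STMN1 and STMN3 below 0, while MAPT spans −0.14 to 1.68 in TPM and 0.29 to 0.63 in coverage.

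Other genes followed the 3 members that were called. Among 9396 genes with a mean of at least 10 TPM, the highest Pearson correlations of log2(TPM + 1) over the 12 libraries with STMN1 were those of ANP32E (0.992), TMEM230 (0.990) and COX6C (0.989). STMN4 was matched most closely by EIF3M (0.981), SQSTM1 (0.978) and ASL (0.977). MAP2 was matched by CCP110 (0.960), TUBD1 (0.957) and FARP1 (0.956). The libraries share a line, a treatment and a replicate number in groups, so these coefficients describe a shared pattern and carry no p.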

How the data were processed

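Per the submitters' processing notes, reads were processed with Trim Galore 0.6.7, HISAT2 2.2.1 and StringTie 2.1.7 on GRCh38/hg38; the sources used here name no annotation release or strand setting. The deposited TPM, which the authors scaled to 1 common total, measure shares of RNA and no absolute amount. The deposited FPKM and the deposited gene coverage (a signal of mean read depth, scaled here by the median of ratios) served as alternatives. The 16842 genes that reached 1 TPM in 2 or more libraries were tested on log2(TPM + 1) with limma 3.58.1 under R 4.3.3, using a variance trend, 6 group means over all 12 libraries and 6 residual degrees of freedom. Calls were made at a Benjamini-Hochberg adjusted p below 0.05. A fold on this scale understates changes of sparse genes. The exact permutation test of 2 against 2 libraries cannot go below 0.333 and was not used. The script was tested on simulated data. Depth limits the precision; the values analysed here are not counts, so no counting intervals are given.

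Deviations from the group mean correlated between same-numbered replicates in all 15 pairs of groups (0.37 to 0.75). By this check the numbers pair the samples. The main fit, its intervals and the fits that leave out 1 library do not use this pairing. Blocked values are printed where they change a call. Genes annotated over the members averaged at most 1.13 TPM. The 10 members, the related lists and the naming rule (all members, and in each list up to 3 called genes of largest change per knockdown line) were chosen with earlier results of these data known. The genes most like STMN1, STMN4 and MAP2 were named by Pearson correlation. Kinase changes in the shRCOR1 line are not reported here. Tables and plots were made with numpy 2.4.6, pandas 2.3.3 and matplotlib 3.10.9 in Python 3.11.15.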

Additional observations from a re-analysis of the deposited data

Results flagged for a closer look

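Changes of 3 members differed between lines by a test of the difference itself. The STMN1 change with induction was lower in shRCOR2 cells than in shCTRL cells by −2.46 ± 0.41 (SE, log2; limma adjusted p = 0.028) and lower than in shRCOR1 cells by −2.29 ± 0.41 (limma adjusted p = 0.0113). The STMN4 change was higher in shRCOR1 cells than in shCTRL cells by 2.03 ± 0.25 (limma adjusted p = 0.0123), and the shRCOR2 change of STMN4 differed from the shRCOR1 change by −1.49 ± 0.25 (limma adjusted p = 0.00887). The MAP2 change was higher in shRCOR2 cells than in shRCOR1 cells by 1.10 ± 0.22 (limma adjusted p = 0.0172). The differences from shCTRL cells use the same 4 shCTRL libraries.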

How the results depend on the processing

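The fall of STMN1 in shRCOR2 cells (−2.83 to −2.56) and the rise of STMN4 in shRCOR1 cells (2.09 to 2.55) were called under all 23 alternatives, with adjusted p of at most 0.018 and 0.0098; so were the STMN1 and STMN4 differences between the shRCOR2 and shRCOR1 changes (at most 0.0485 and 0.0413). Pseudocounts of 0.1 and 5, a minimum of 5 TPM, FPKM, median-of-ratios scaling, TPM without mitochondrial genes and coverage left all counts of called members within 1.5 times. With the replicate block, 6 members were called in the shRCOR1 line, 3 for shRCOR1 minus shCTRL, 2 for shRCOR2 minus shCTRL and 6 for shRCOR2 minus shRCOR1. Coverage with the block, chosen after seeing the data like coverage itself, gave 4 in the shRCOR2 line, 6 in the shRCOR1 line and 2 for each difference from shCTRL. A fit of the compared groups alone called 0 for both differences from shCTRL, and no filter on low values called 0 for shRCOR2 minus shCTRL (STMN1 adjusted p = 0.0575). The cause was not tested, except that the fit of fewer groups has fewer samples. Leaving out 1 library at a time gave 1 to 2 called members in the shRCOR2 and shRCOR1 lines, 0 to 1 for each difference from shCTRL, 2 to 3 for shRCOR2 minus shRCOR1 and 0 elsewhere; the lone library of a group is then assumed to vary like the others.

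Signs turned for uncalled values only. MAP1B gave 0.016 in the shRCOR2 line with FPKM and −0.0049 in the shCTRL line without mitochondrial genes, and TUBB3 gave 0.0045 in the shRCOR2 line with FPKM. MAPT gave 0.0276 in the shCTRL line with coverage, with or without the block. RCOR1 in the shRCOR2 line gave −0.0688 with median-of-ratios scaling, −0.0017 without mitochondrial genes and −0.0623 with coverage, with or without the block. Over the libraries left out in turn, ranges that crossed 0 in the shCTRL line were −0.89 to 0.53 (DCX), −0.16 to 0.47 (GAP43), −0.34 to 0.37 (MAP1B), −0.57 to 0.11 (STMN1), −0.52 to 0.66 (STMN2), −0.43 to 0.0796 (STMN3), −0.18 to 0.027 (TUBB3) and −0.22 to 6.3e-05 (RCOR1). In the shRCOR2 line they were −0.20 to 0.11 (MAP1B), −0.0323 to 0.45 (MAP2), −0.73 to 0.0793 (MAPT), −0.20 to 0.63 (STMN2), −0.0052 to 0.41 (STMN3) and −0.0374 to 0.0484 (RCOR1), and in the shRCOR1 line −1.30 to 0.38 (MAPT) and −1.19 to 0.0378 (STMN2). The RCOR1 call in its own line was lost without any of that line's 4 libraries (adjusted p of 0.061 to 0.0884).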
